A study of Mus musculus with 6 samples.

Results

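The genes described here are 39 genes of the urea cycle and of amino acid breakdown, named one by one: urea cycle enzymes and carriers, aminotransferases and glutaminase, enzymes that degrade histidine, serine, tyrosine, tryptophan, proline and branched-chain amino acids, and enzymes of the methionine cycle. They were found by their Ensembl identifiers in the GRCm38 annotation, and all 39 had a row among the 54682 rows of the count table. All 39 also passed the filter on low counts that left 14145 genes for testing, with at least 174 reads in every library. The knockout (KO) group is 3 CD44 KO mice, Cd44-/- mice of the strain B6.Cg-Cd44tm1Hbg/J, whose germline allele removes the hyaluronan receptor CD44 from every cell type. The control group is 3 wild-type (WT) mice. Both groups had the ethanol-containing Lieber-DeCarli liquid diet (5% ethanol by volume) for 10 days and a gavage of 5 g/kg ethanol on day 11, with livers taken 9 hours later. No mouse without ethanol was analysed here, and the sources used here give no age, sex or breeding of the mice. Each library is poly(A) RNA of whole liver from 1 mouse.

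Amino acid nitrogen reaches the liver as glutamine, alanine and other amino acids, is released as ammonia or passed to aspartate, and leaves as urea. The urea cycle starts in hepatocyte mitochondria with carbamoyl phosphate and ends in the cytosol where arginase splits arginine, and its enzymes are most abundant in hepatocytes near the portal vein. The carbon skeletons go to glucose or ketone bodies along separate routes for each amino acid, several of which are induced by glucagon and glucocorticoids. The methionine cycle makes S-adenosylmethionine, the general methyl donor, and its impairment is a known feature of ethanol-exposed liver.

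Cd44 had 1, 0 and 0 counts in KO mice 1, 2 and 3, against 590, 175 and 568 counts in WT mice 1, 2 and 3, so no library went against its label. Total counts ran from 15493009 to 19346623 per library, and the 39 genes held 2.45% to 3.62% of the annotated counts. All 7 hepatocyte markers matched, albumin among them, had at least 5068 counts in every library. Of 6 pancreas and kidney markers, 2 were at 0 in every library. Prss2, Cpa1 and Slc34a1 had at most 10 counts in any library, and Cela1 had 98 to 165. WT 3 stood apart: over all genes its log2 levels correlated with the other 5 libraries at r = 0.955 to 0.966, against 0.971 to 0.986 among those 5. Summed levels of the 8 macrophage markers were 275 to 306 CPM (counts scaled to library size) in KO mice and 341 to 931 CPM in WT mice, with WT 2 lowest of the WT mice and all 8 markers lower in mean in KO livers. Summed levels of the 6 proliferation genes were 21.6 to 27.6 CPM in KO mice and 43.8 to 101 CPM in WT mice, highest in WT 3. Hepatocyte markers summed to 91061 to 113306 CPM in KO mice and 82612 to 101588 CPM in WT mice, lowest in WT 3. Albumin made up most of each sum. Taken 1 by 1, 6 of the 7 hepatocyte markers had a higher and 1 a lower mean in KO livers. Their median log2 fold change, KO over WT, was 0.28, with a range from −0.018 for Apoa1 to 0.72 for Fgb. Alb, Apob, Ttr, Serpina1c and Cyp2e1 were each lowest in WT 3, Fgb was lowest in WT 1, and Apoa1 was highest in WT 3. The part of these markers in the values below was not tested, and in whole liver fewer cells of a type and less RNA per cell cannot be told apart.

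The comparison asks how the nitrogen and amino acid programme of the ethanol-exposed liver differed between genotypes. Fold changes are KO over WT on the log2 scale with their standard error, levels are CPM after TMM scaling, and intervals are 95% intervals of the edgeR fit for 1 gene at a time. None of the 39 genes passed an adjusted p of 0.05 over all genes in edgeR's quasi-likelihood test, with DESeq2 or with limma-voom. In these data edgeR called 2 genes in all, Cd44 itself and Disp2, which is 0.0141% of those tested. DESeq2 called 2.03% and limma-voom 0%. With so few calls in edgeR, a lack of calls among the 39 says little by itself. Of the 39, 20 had a higher and 19 a lower mean in KO livers, with a median log2 fold change of 0.011, beside −0.0075 over all genes tested. An unadjusted p under 0.05 in edgeR was reached by 2 of the 39 (5.13%), Kmo and Prodh, both higher in KO, where the share over all genes was 12.8%, or 5.22% in that direction. For 3 of the 39 (7.69%), the same pair and Ahcy, every KO mouse was above every WT mouse. Over all genes 18.2% were without overlap, 8.81% higher and 9.42% lower in KO livers. Both shares lay below those of all genes.

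The fold changes were bounded for most of the list. For 30 of the 39 genes the interval lay wholly between a halving and a doubling, beside 68.5% of all genes tested. The 9 others were Got1, Gpt2, Sds, Sdsl, Tat, Hpd, Gnmt, Cth and Prodh. The largest fitted changes were 0.56 ± 0.20 for Prodh and −0.52 ± 0.31 for Cth (SE), with adjusted p of 0.308 and 0.549 in edgeR.

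**Figure D1:**
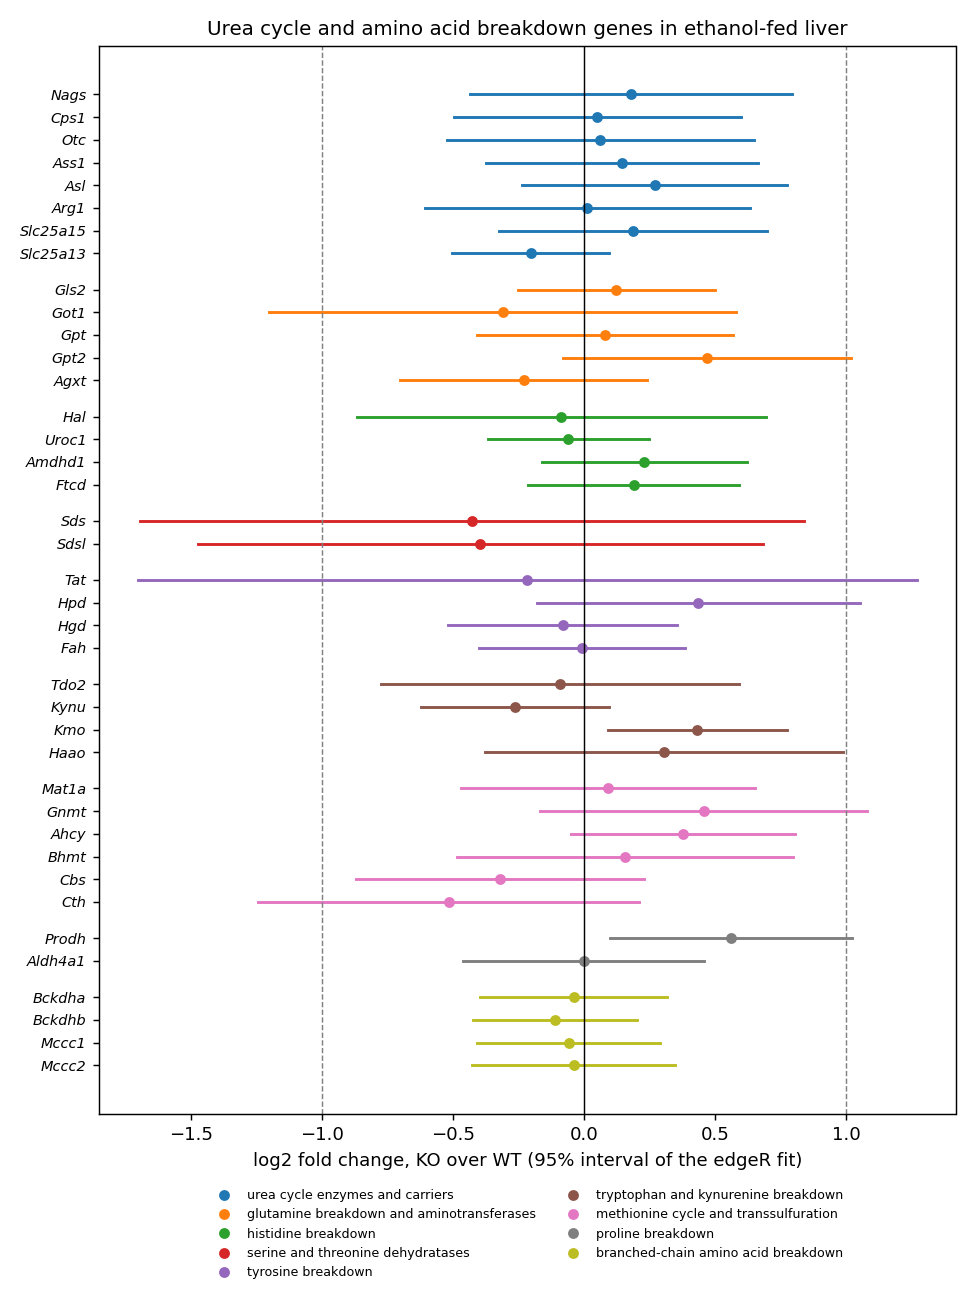
Log2 fold changes, KO over WT, of the 39 genes (points) with the 95% interval of the edgeR fit (lines), coloured by role; dashed lines mark a halving and a doubling. Intervals of all but Kmo and Prodh include 0, and those of Sds, Sdsl and Tat are the widest.

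Without WT 3, the library that stood apart, the picture of the list moved. The median log2 fold change of the 39 genes became 0.24, beside −0.012 over all genes, and 27 of the 39 had a higher mean in KO livers (69.2%, beside 48.2% of all genes). An unadjusted p under 0.05 was then reached by 8 of the 39 (20.5%), 7 higher and 1 lower, beside 11.7% of all genes. The genotypes then did not overlap for 12 of the 39 (30.8%), 11 of them higher, beside 29.1% of all genes. No gene of the list passed over all genes in that fit either, and the smallest adjusted p in edgeR was 0.264, for Nags. Without WT 2 an unadjusted p under 0.05 was reached by 7 of the 39, 5 higher and 2 lower, beside 16.6% of all genes, and the smallest adjusted p in edgeR was 0.0621, for Prodh. The number was 3 without WT 1 (12.3% of all genes), 2 without KO 2 (10.0%), 1 without KO 1 (9.26%) and 1 without KO 3 (6.64%). The lean of the list depended on the mouse left out. Without WT 1 the median was −0.084 and without KO 3 it was −0.087. In each of these fits 15 of the 39 genes were higher and 24 lower, beside 49.0% of all genes higher. The median was 0.049 without KO 1, 0.16 without KO 2 and 0.081 without WT 2, with 22, 26 and 24 of the 39 higher.

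Urea cycle genes were close between the genotypes. Of the 8 enzymes and carriers, 7 had a slightly higher mean in KO livers, the median log2 fold change was 0.10, none reached an unadjusted p under 0.05, and all 8 intervals lay within a halving and a doubling. Ass1, argininosuccinate synthase (ENSMUSG00000076441; GRCm38 chromosome 2, 31470207 to 31520672, plus strand), was the most abundant of them per exon length. It had 2258, 2147 and 2766 CPM in KO mice 1, 2 and 3, against 1796, 1947 and 2755 CPM in WT mice 1, 2 and 3. The genotypes overlapped because WT 3 stood with KO 3, and the log2 fold change was 0.14 ± 0.23 (SE; interval −0.38 to 0.66; adjusted p = 0.857 in edgeR).

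Cps1, which makes carbamoyl phosphate and sets the pace of the cycle, had 4144, 3301 and 4749.9 CPM in KO mice 1, 2 and 3, against 3517, 3389 and 4882 CPM in WT mice 1, 2 and 3 (0.049 ± 0.24). KO 3 and WT 3 were the high mice and KO 2 was the lowest, so the genotypes spanned almost the same range. Its activator is made by Nags, which stood at 57.2 ± 7.15 CPM in KO livers and 50.5 ± 20.2 CPM in WT livers (SD, n = 3 each). Nags had a log2 fold change of 0.18 ± 0.26, and of 0.56 without WT 3. Otc, which forms citrulline, was lowest in WT 3. It had 314, 255 and 372 CPM in KO mice, against 328, 378 and 197 CPM in WT mice. Arg1, the arginase, was nearly equal at 1417 ± 320.4 CPM in KO livers and 1407 ± 437 CPM in WT livers (0.011 ± 0.27). Asl, which splits argininosuccinate, had the highest fold change of the 8 (0.27 ± 0.22). Of the mitochondrial carriers, Slc25a15 for ornithine gave 0.19 ± 0.22, which became 0.47 without WT 3 and 0.0067 without WT 1. Slc25a13, or citrin, which exports aspartate, gave −0.20 ± 0.13, the only one of the 8 with a lower mean in KO livers.

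In the glutaminase and aminotransferase group 3 of 5 had a higher mean in KO livers, with a median of 0.080. Gpt2, the mitochondrial alanine aminotransferase, was the most abundant of the 5 per exon length. It had 968, 1242 and 1627 CPM in KO mice 1, 2 and 3, against 796, 845 and 1133 CPM in WT mice 1, 2 and 3. Only WT 3 reached into the KO range, and the log2 fold change was 0.47 ± 0.24 (interval −0.081 to 1.02; adjusted p = 0.466 in edgeR). The cytosolic form Gpt gave 0.080 ± 0.21 and liver glutaminase Gls2 0.12 ± 0.16. Agxt, which detoxifies glyoxylate with alanine, gave −0.23 ± 0.20, with the lowest value of 181 CPM in KO 1.

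Got1, the cytosolic aspartate aminotransferase, was set by its spread between WT mice. It had 276, 207 and 223 CPM in KO mice 1, 2 and 3, against 145, 272 and 458 CPM in WT mice 1, 2 and 3. The WT mice enclosed all 3 KO mice, and the log2 fold change of −0.31 ± 0.38 became 0.17 without WT 3.

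For all 4 genes of histidine breakdown the genotypes overlapped. Ftcd, which moves the formimino group to folate at the end of the route, led the 4 genes per exon length. It had 422, 434 and 562 CPM in KO mice 1, 2 and 3, against 386, 377 and 480.2 CPM in WT mice 1, 2 and 3 (0.19 ± 0.18). WT 3 lay between the KO values and the other WT mice lay below them. Amdhd1, the imidazolonepropionase, gave 0.23 ± 0.17 and Uroc1, the urocanase, −0.061 ± 0.13, the tightest of the 4. Without WT 3 the fold changes were 0.31 for Ftcd, 0.40 for Amdhd1 and −0.056 for Uroc1. Ftcd and Amdhd1 were then without overlap, as were 29.1% of all genes in that fit, and Uroc1 still overlapped. The adjusted p in edgeR was then 0.524 for Ftcd and 0.345 for Amdhd1. Hal, the histidine ammonia-lyase that opens the route, had 116, 101 and 123 CPM in KO mice, against 69.8, 104 and 189 CPM in WT mice. Its mean difference of −0.088 ± 0.33 became 0.39 without WT 3, and WT 1 and WT 3 were its lowest and highest mice.

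The serine dehydratases Sds and Sdsl, which turn serine into pyruvate and ammonia, were the least settled of the roles. Sds had 108, 86.6 and 109 CPM in KO mice 1, 2 and 3, against 45.1, 121 and 242 CPM in WT mice 1, 2 and 3. The KO mice stood together inside the WT range, where the highest mouse had 5.36 times the level of the lowest. The log2 fold change was −0.43 ± 0.53 (interval −1.70 to 0.84; adjusted p = 0.811 in edgeR), and 0.28 without WT 3. Sds shares 21.3% of its exon bases with Plbd2 on the opposite strand, which had a similar total of counts, so its level is uncertain. Sdsl had 16.1, 16.9 and 17.0 CPM in KO mice, against 14.0, 11.4 and 40.3 CPM in WT mice. Here too WT 3 alone was high, and −0.40 ± 0.46 became 0.39 without it.

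For tyrosine breakdown the first enzyme had the widest error and the last the narrowest. Hpd, hydroxyphenylpyruvate dioxygenase (ENSMUSG00000029445; chromosome 5, 123171807 to 123182727, minus strand), was the most abundant of the 4 per exon length. It had 1439, 1174 and 1776 CPM in KO mice 1, 2 and 3, against 923, 1491 and 832 CPM in WT mice 1, 2 and 3. WT 2 lay among the KO mice and the other WT mice below all of them (0.44 ± 0.27; adjusted p = 0.555 in edgeR). Its fold change was 0.75 without WT 2 and 0.28 without WT 3. Tat, the tyrosine aminotransferase long used as a readout of glucocorticoid action, had 617, 1386 and 1292 CPM in KO mice, against 448, 899 and 2485 CPM in WT mice. The WT mice spanned the whole KO range, with a highest to lowest ratio of 5.55 in WT and 2.25 in KO mice. Its log2 fold change was −0.22 ± 0.62, the widest error of the 39, and 0.71 without WT 3. Hgd, the homogentisate dioxygenase, gave −0.083 ± 0.19, and Fah, the fumarylacetoacetate hydrolase that ends the route, −0.0099 ± 0.17.

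Kmo, in the kynurenine branch of tryptophan breakdown, was 1 of the 3 genes whose genotypes did not overlap. Kmo, kynurenine monooxygenase (ENSMUSG00000039783; chromosome 1, 175620381 to 175662116, plus strand), had 244, 182 and 244 CPM in KO mice 1, 2 and 3, against 164, 169.9 and 163 CPM in WT mice 1, 2 and 3. The WT mice were close together and KO 2 was the KO mouse nearest to them. The log2 fold change was 0.43 ± 0.15 (interval 0.092 to 0.77; adjusted p = 0.294 in edgeR and 0.172 in DESeq2), and 0.37 to 0.56 on leaving out any 1 mouse. For the other 3 genes of the route the genotypes overlapped. Tdo2, the tryptophan dioxygenase that commits tryptophan to it, had 633, 410.2 and 753 CPM in KO mice, against 434, 641 and 839 CPM in WT mice (−0.092 ± 0.30). KO 2 was its lowest mouse and WT 3 its highest. Kynu, kynureninase, gave −0.27 ± 0.16 and Haao, hydroxyanthranilate dioxygenase, 0.30 ± 0.29. Haao was low in WT 3 at 141 CPM, against 249 and 344 CPM in WT 1 and WT 2 and 266 to 325 CPM in KO mice, and its fold change was 0.028 without WT 3.

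Prodh, proline dehydrogenase (ENSMUSG00000003526; chromosome 16, 18060357 to 18090203, minus strand), had the highest fold change of the list. It had 263, 242 and 267 CPM in KO mice 1, 2 and 3, against 161, 230.0 and 133 CPM in WT mice 1, 2 and 3. The KO mice were close together, and WT 2 was the only WT mouse near them. The log2 fold change was 0.56 ± 0.20 (interval 0.096 to 1.02; adjusted p = 0.308 in edgeR and 0.169 in DESeq2), and 0.40 to 0.82 on leaving out any 1 mouse, the highest without WT 2. Aldh4a1, the next enzyme of proline breakdown, led this pair per exon length and did not differ by more than its error. It had 164, 169 and 209.7 CPM in KO mice, against 158, 236 and 149.5 CPM in WT mice (−0.0018 ± 0.20). Its sign changed with the scaling, being 0.00011 with RLE in place of TMM.

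A pair of methionine cycle genes were the most abundant of the list. Per kilobase of exon, Gnmt stood at 1709 and Mat1a at 1557 CPM in KO livers, against 1247 and 1461 CPM in WT livers, ahead of Ass1 at 990.3 CPM per kilobase in KO livers and 897 in WT livers. At the other end, Mccc1 stood at 4.68 CPM per kilobase in KO livers and 4.88 in WT livers. Mat1a, which makes S-adenosylmethionine in adult liver, had 5895, 4413 and 5887 CPM in KO mice 1, 2 and 3, against 4138, 4741 and 6326 CPM in WT mice 1, 2 and 3. WT 3 was the highest mouse and WT 1 the lowest, and the log2 fold change was 0.091 ± 0.24.

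Ahcy, which hydrolyses S-adenosylhomocysteine (ENSMUSG00000027597; chromosome 2, 155059310 to 155074497, minus strand), had 1594, 1352 and 1746 CPM in KO mice 1, 2 and 3, against 1034, 1237 and 1343 CPM in WT mice 1, 2 and 3. The genotypes did not overlap, but KO 2 and WT 3 lay close to each other. The log2 fold change was 0.38 ± 0.19 (interval −0.050 to 0.80; adjusted p = 0.449 in edgeR). Its distance from Cd44, also on chromosome 2, is 52.2 Mb. Gnmt, which removes surplus methyl groups onto glycine, had 2049.6, 1669 and 2465 CPM in KO mice, against 1536, 1958 and 1017 CPM in WT mice. WT 2 lay among the KO mice and WT 3 was lowest (0.45 ± 0.27, and 0.24 without WT 3).

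Bhmt, which remethylates homocysteine from betaine, gave 0.16 ± 0.28, with its highest value of 4616 CPM in KO 3. The transsulfuration pair, which turns homocysteine into cysteine, had lower means in KO livers. Cbs had 197, 184 and 198 CPM in KO mice 1, 2 and 3, against 214, 170.2 and 339 CPM in WT mice 1, 2 and 3 (−0.32 ± 0.24). Cth, cystathionine gamma-lyase, had 143, 146 and 221 CPM in KO mice, against 211, 161 and 358 CPM in WT mice (−0.52 ± 0.31). WT 3 was the highest mouse for both, and without it the fold changes were 0.0052 for Cbs and −0.13 for Cth.

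Branched-chain breakdown was the quietest role. All 4 genes had a slightly lower mean in KO livers, with log2 fold changes from −0.11 to −0.041 and all 4 intervals within a halving and a doubling. Bckdhb, a subunit of the ketoacid dehydrogenase, had 75.5, 74.6 and 92.6 CPM in KO mice 1, 2 and 3, against 78.0, 89.1 and 94.9 CPM in WT mice 1, 2 and 3. The genotypes overlapped and no mouse stood out. Bckdha, its partner subunit, gave −0.041 ± 0.16, and shares 61.7% of its exon bases with B3gnt8 on the opposite strand, which had 180 counts in all against 6926 for Bckdha. Mccc1 and Mccc2, the subunits of methylcrotonyl-CoA carboxylase in leucine breakdown, gave −0.060 ± 0.15 and −0.041 ± 0.17.

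**Figure D2:**
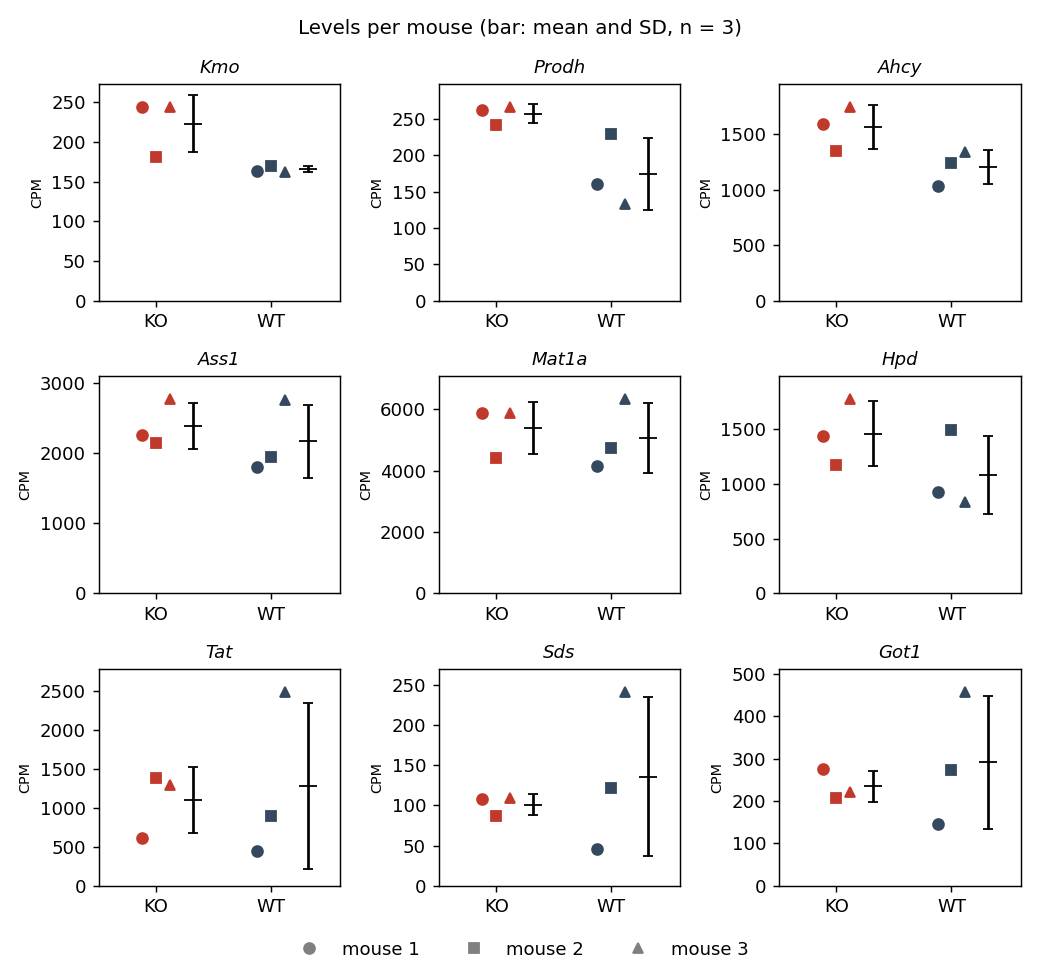
CPM of 9 genes in each mouse (symbols by mouse number; axes start at 0), with the mean and SD of 3 mice beside them, KO left of WT. Kmo, Prodh and Ahcy do not overlap between genotypes, Ass1, Mat1a and Hpd are the most abundant of their roles per exon length, and for Tat, Sds and Got1 the WT mice enclose the KO mice.

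The upstream sequences of the 3 genes whose genotypes did not overlap are shown with that of Tat, the gene with the widest spread, so that their letters can be compared. Each is the 250 bases before the RefSeq transcription start on GRCm38.p6, read along the gene's strand, and capitals mark CCAAT on either strand. For Kmo and Prodh that start lies inside the gene span given above, which comes from GENCODE.
Kmo, chr1:175631943-175632192, plus strand: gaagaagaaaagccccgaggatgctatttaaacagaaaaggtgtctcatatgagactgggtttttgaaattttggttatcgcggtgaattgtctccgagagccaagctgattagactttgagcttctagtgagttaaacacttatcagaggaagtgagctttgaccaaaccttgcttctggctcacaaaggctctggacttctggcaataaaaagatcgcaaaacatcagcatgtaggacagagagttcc
Prodh, chr16:18089191-18089440, minus strand: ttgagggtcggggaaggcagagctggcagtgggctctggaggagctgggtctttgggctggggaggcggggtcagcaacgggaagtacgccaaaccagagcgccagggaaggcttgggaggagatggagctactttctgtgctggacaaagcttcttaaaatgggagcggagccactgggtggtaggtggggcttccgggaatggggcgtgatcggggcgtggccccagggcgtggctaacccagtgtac
Ahcy, chr2:155074498-155074747, minus strand: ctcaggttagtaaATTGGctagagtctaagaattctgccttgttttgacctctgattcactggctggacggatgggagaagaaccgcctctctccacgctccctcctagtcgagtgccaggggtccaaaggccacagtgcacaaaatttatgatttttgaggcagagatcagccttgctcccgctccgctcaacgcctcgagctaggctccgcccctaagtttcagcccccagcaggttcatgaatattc
Tat, chr8:109990186-109990435, plus strand: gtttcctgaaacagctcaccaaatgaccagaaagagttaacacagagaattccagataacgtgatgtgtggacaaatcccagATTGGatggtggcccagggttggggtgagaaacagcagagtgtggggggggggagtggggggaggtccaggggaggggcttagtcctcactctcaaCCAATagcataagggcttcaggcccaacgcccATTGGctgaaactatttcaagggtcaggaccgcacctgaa
CCAAT occurred 3 times in the Tat window, once in that of Ahcy and in neither of the other two. RefSeq gave 31 such windows for 29 of the 39 genes, of which 15 held CCAAT on either strand (48.4%), beside 33.9% of all 32851 windows. The other motifs searched were TATAAA on the sense strand (2 of 31, beside 7.59% of all), TTGCNNAA, the core of C/EBP sites, on both strands (2 of 31, beside 9.56%), TGACGTCA, the full cAMP response element, on both strands (0 of 31, beside 1.55%) and its first 5 letters TGACG on both strands (2 of 31, beside 17.8%). None of these 4 was in the windows printed.

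The levels of these genes differed more between WT mice than between KO mice, as did those of most genes tested. The SD of log2(CPM + 0.5) was larger among WT mice for 30 of the 39 genes (76.9%), beside 67.3% of all genes tested. The median SD was 0.19 in KO mice and 0.31 in WT mice, beside 0.17 and 0.24 over all genes tested. The highest WT mouse had at least 2 times the level of the lowest for 8 of the 39 genes, and the highest KO mouse for 2, Tat and Bhmt. The 9 genes with the larger SD among KO mice were Asl, Slc25a13, Gpt2, Agxt, Uroc1, Ftcd, Kmo, Bhmt and Bckdhb.

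**Figure D3:**
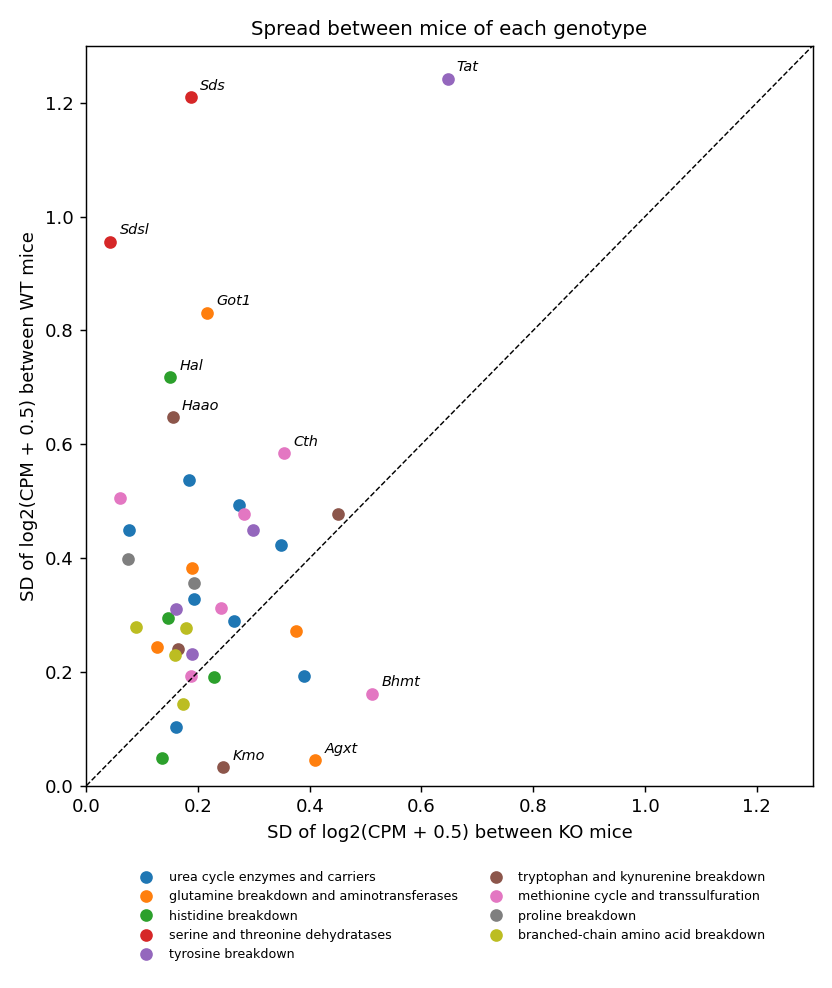
SD of log2(CPM + 0.5) between the 3 KO mice (x axis) and the 3 WT mice (y axis) for each of the 39 genes, coloured by role; the dashed line marks equal spread. Of the 39 points, 30 lie above the line, with Sds, Tat, Sdsl and Got1 farthest from it.

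Among the 3 WT mice, WT 3 was the highest or the lowest for 34 of the 39 genes, WT 2 for 23 and WT 1 for 21. Of all 6 mice, WT 3 was the highest for 16 of the 39 genes and the lowest for 8, so it was an extreme for 24, and over all genes it was an extreme for 47.4%. WT 1 was the lowest mouse for 16 of the 39 and the highest for 0, where over all genes it was lowest for 17.1% and highest for 18.3%. WT 2 was the highest for 8 and the lowest for 3, beside 17.5% and 17.9% of all genes. KO 3 was the highest for 14 and the lowest for 0, beside 16.3% and 18.5% of all genes. KO 2 was the highest for 0 and the lowest for 10, beside 11.3% and 10.3%. KO 1 was the highest for 1 and the lowest for 2, beside 12.9% and 12.4%. A level over 1.5 times beyond that of every other mouse was seen in WT 3 for 9 of the 39 genes, beside 8.23% of all genes, and in WT 1 for Sds. For Got1, Hal, Sds, Sdsl, Tat, Cbs and Cth WT 3 was the high mouse, and for Gnmt and Haao it was the low one. No KO mouse stood out in this way for any of the 39. These genes were singled out after their values were seen.

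**Figure D4:**
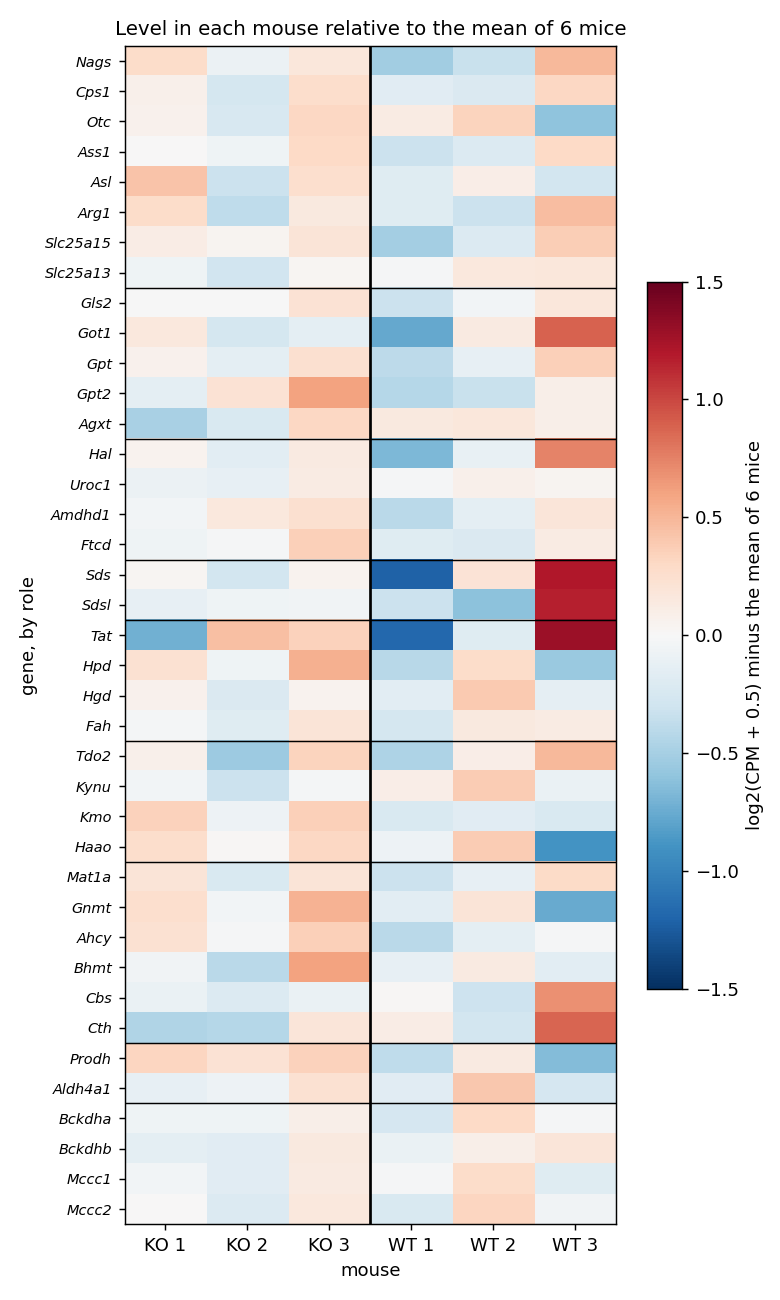
Level of each of the 39 genes in each mouse as log2(CPM + 0.5) minus the mean of the 6 mice (colour; red is higher), KO mice left of WT mice and genes in order of role. WT 3 is the high mouse for Sds, Sdsl, Tat, Got1, Cbs and Cth and the low one for Haao and Gnmt. Kmo, Prodh and Ahcy are the 3 rows in which every KO mouse is above every WT mouse.

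Other genes of the same pathways came from a list of 118, of which 113 were tested, and a larger share of them had a higher mean in KO livers. Of the 113, 72 had a higher and 41 a lower mean in KO livers, with a median of 0.078. The higher ones were 63.7%, beside 48.9% of all genes tested. In edgeR 0 passed over all genes, while 8 higher and 4 lower had an unadjusted p under 0.05 (10.6%, beside 12.8% of all genes). The genotypes did not overlap for 8 higher and 4 lower of the 113, beside 18.2% of all genes. DESeq2 called 1 higher and 2 lower (2.65%, beside 2.03% of all genes). The one called higher was Csad, which makes hypotaurine on the way to taurine. It had 135, 102 and 134 CPM in KO mice 1, 2 and 3, against 53.2, 81.3 and 76.3 CPM in WT mice 1, 2 and 3 (0.82 ± 0.19; adjusted p = 0.217 in edgeR and 0.0153 in DESeq2). Its genotypes did not overlap, and its route to taurine begins from the cysteine that Cbs and Cth make.

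The 2 genes called lower by DESeq2 were Ivd and Pck1. Ivd, isovaleryl-CoA dehydrogenase, the step before Mccc1 and Mccc2 in leucine breakdown, had 88.0, 71.6 and 108 CPM in KO mice, against 119, 197 and 172 CPM in WT mice (−0.86 ± 0.22; adjusted p = 0.218 in edgeR and 0.0261 in DESeq2). It stood out from the branched-chain genes above, whose fold changes did not pass −0.11. Pck1, which turns amino acid carbon towards glucose, had 692, 873 and 1020.1 CPM in KO mice, against 1043, 1540.3 and 3222 CPM in WT mice (−1.17 ± 0.40; adjusted p = 0.301 in edgeR and 0.0473 in DESeq2). Ivd lies 16.0 Mb from Cd44 on chromosome 2, and Pck1 70.3 Mb. Whether position on the chromosome of the deleted gene had a part in these values was not tested. The genotypes of Pck1 did not overlap, KO 3 and WT 1 were close to each other, and WT 3 was again the highest mouse, as for Tat.

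The other genes with an unadjusted p under 0.05 came from several lists and none passed over all genes in edgeR or DESeq2. Of the 12 other nitrogen handling genes, Nit2, the omega-amidase, had a higher mean in KO livers (0.27 ± 0.12). Of the 5 phenylalanine and tyrosine genes, Qdpr, which recycles the cofactor of phenylalanine hydroxylase, had a lower mean (−0.30 ± 0.12). Hao1, the hydroxyacid oxidase that makes glyoxylate, gave 0.33 ± 0.13 among 14 glycine, serine and glyoxylate genes. Auh, in leucine breakdown, gave 0.29 ± 0.12. Of 15 amino acid transporters, the aromatic amino acid carrier Slc16a10 gave 0.49 ± 0.14 and Slc25a47, a mitochondrial carrier, 0.60 ± 0.26. Of 17 regulators, Cebpb gave 0.43 ± 0.15. The 8 other tryptophan genes and the 6 lysine genes held none.

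Glul, the glutamine synthetase of hepatocytes around the central vein, which takes up the ammonia that the urea cycle leaves, is given because of its values, which were seen first. Glul had 1074, 1072 and 1189 CPM in KO mice 1, 2 and 3, against 722, 1206 and 215 CPM in WT mice 1, 2 and 3. The KO mice stood together, WT 2 was above them and WT 3 far below, and the log2 fold change was 0.64 ± 0.53 (adjusted p = 0.690 in edgeR).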

How the data were processed

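Poly(A) RNA of liver was sequenced from 3 KO and 3 WT mice, 1 library per mouse, grouped by the genotype in the sample titles. The authors deposited raw counts, 1 whole number per gene and library. Per the submitters' processing notes, featureCounts 1.5.0-p3, HISAT2 2.0.5 and StringTie 1.3.3b were used with the GRCm38.p6 build. Strand setting, multi-mapping rule and annotation release were not given in the sources used here, so reads of overlapping genes cannot be assigned with certainty. Symbols, positions and exon lengths came from GENCODE on GRCm38. Left out were 150 gene models with no name, 0.273% to 0.509% of counts per library. In R 4.3.3, edgeR 4.0.16 kept genes by filterByExpr, scaled by TMM and tested genotype by its robust quasi-likelihood test, adjusted by Benjamini-Hochberg over 14145 genes. The standard error is the fold change over the square root of F, and intervals use the t quantile of the fit. The fit was checked on counts simulated from its own means and dispersions. Such counts hold no library that stands apart as WT 3 did, so the check does not cover that. How often it found changes of known size is not reported here. Alternatives were limma-voom (limma 3.58.1), DESeq2 1.42.0, RLE scaling, other count filters, a non-robust fit, mouse number as a block and leaving out each mouse. CPM per kilobase uses all annotated exons of a gene. An exact permutation test of 3 mice against 3 gives no p under 0.1, so p values come from these models. Nothing says whether mice shared a cage or litter.

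The genes, their roles, the lists and the tests were chosen with earlier results of these data known. Values in every mouse are given for those of the 39 genes with an unadjusted p under 0.05 or no overlap between genotypes. They are also given for the most abundant gene of each role per exon length. Of each other pathway list, up to 3 genes by smallest p are named, and here only those under 0.05; some genes that this rule names are not reported here. Other genes given mouse by mouse were chosen after their values were seen.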

Additional observations from a re-analysis of the deposited data

How the results depend on the processing

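No setting called any of the 39 genes: 0 passed over all genes with RLE scaling, without a count filter, with a minimum of 1 CPM in 3 libraries, with DESeq2, with limma-voom, in the non-robust fit, with mouse number as a block or without any 1 mouse, and the smallest adjusted p of any of these fits was 0.0621. The genes with an unadjusted p under 0.05 numbered 4 without a count filter and 4 in DESeq2, and 1 to 8 on leaving out 1 mouse. Genes without overlap numbered 4 to 12 on leaving out 1 mouse, beside 23.1% to 34.1% of all genes in the same fits. The median log2 fold change ran from −0.087 to 0.24, highest without WT 3. Over all genes the calls numbered 6 without a count filter, 287 in DESeq2, 0 in limma-voom and 0 to 151 on leaving out 1 mouse. In these last fits genes with an unadjusted p under 0.05 numbered 979 to 2433. The deleted gene Cd44 had an adjusted p of 0.28 in limma-voom, so a lack of calls there carries little information. The same holds for the fits that called 0 genes in all. Same-numbered KO and WT mice deviated from their group means with r of −0.029, −0.041 and −0.0073, so the numbers were not taken as pairs; with the replicate block 3 of the 39 genes had an unadjusted p under 0.05 and 1 gene was called in all.

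Of the 39 genes, 19 kept their direction in every fit. Outside the fits that leave out a mouse 3 reversed: Hal (0.026 with the replicate block, 0.036 in limma-voom), Tat (0.057 and 0.048) and Aldh4a1 (0.00011 with RLE, 0.0014 without a count filter, 0.020 with the block, 0.0033 in DESeq2 and 0.015 in limma-voom). The cause was not tested. On leaving out 1 mouse the log2 fold changes of 20 genes changed sign, with ranges of Nags −0.010 to 0.56, Cps1 −0.071 to 0.24, Otc −0.17 to 0.27, Arg1 −0.13 to 0.29, Got1 −0.64 to 0.17, Gpt −0.077 to 0.31, Hal −0.36 to 0.39, Sds −0.84 to 0.28, Sdsl −0.70 to 0.39, Tat −0.62 to 0.71, Hgd −0.18 to 0.13, Fah −0.13 to 0.075, Tdo2 −0.31 to 0.16, Mat1a −0.035 to 0.28, Bhmt −0.16 to 0.36, Cbs −0.51 to 0.0052, Aldh4a1 −0.12 to 0.24, Bckdha −0.16 to 0.13, Mccc1 −0.16 to 0.084 and Mccc2 −0.15 to 0.14. The other 19 genes ranged without a change of sign: Ass1 0.025 to 0.35, Asl 0.13 to 0.46, Slc25a15 0.0067 to 0.47, Slc25a13 −0.27 to −0.12, Gls2 0.0051 to 0.25, Gpt2 0.26 to 0.65, Agxt −0.48 to −0.053, Uroc1 −0.13 to −0.012, Amdhd1 0.10 to 0.40, Ftcd 0.052 to 0.31, Hpd 0.28 to 0.75, Kynu −0.37 to −0.12, Kmo 0.37 to 0.56, Haao 0.028 to 0.64, Gnmt 0.24 to 0.70, Ahcy 0.28 to 0.47, Cth −0.75 to −0.13, Prodh 0.40 to 0.82 and Bckdhb −0.21 to −0.046. Every gene of the list had at least 174 counts in each library.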
